A study of Arabidopsis thaliana with 7 samples.

Results

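In a peak list for ZF-DDR5 in Arabidopsis thaliana seedlings, 739 of 9999 peaks (7.39%, Wilson 95% interval 6.89% to 7.92%) lay on pseudogenes and transposon genes. They were chosen by position: a peak had to overlap, by at least 1 bp, a locus that the RefSeq gene table of assembly TAIR10.1 types as pseudogene or transcribed pseudogene, and its centre had to lie outside every protein-coding gene. Such loci are called pseudogene loci here, and a locus is called touched when one of the 739 peaks overlaps it. The peaks are in the build TAIR10, so gene coordinates of the table are not printed. The list comes from chromatin immunoprecipitation and sequencing (ChIP-seq) of seedlings at day 12, and ChIP-seq asks where a protein sits in the genome. The series holds 7 samples: ZF-DDR5 (n = 2), ZF-DDR4 (n = 2), Col-0 (n = 2) and 1 more of Col-0 whose title carries the same mark g3 as the ZF-DDR5 titles. The list is filed under ZF-DDR5 replicate 1. The only genetic change that the ZF-DDR5 label names is the fusion itself, and Col-0 is the wild type. The promoter that drives the fusion, the number of transgenic lines and whether the list pools replicates were not stated in the labels.

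Pseudogenes are copies of genes that no longer encode an intact protein. Transposon genes encode, or once encoded, the proteins with which mobile elements copy or move themselves. In Arabidopsis most transposons lie near the centromeres, packed into heterochromatin and silenced by DNA methylation, histone H3K9 methylation and small RNAs, while others are scattered among genes. ZF-DDR5 joins an engineered zinc finger to DDR5, a DDT-domain protein. DDT-domain proteins are partners of ISWI remodellers, which slide nucleosomes. Zinc fingers of this kind were designed to bind the repeats at FWA, a gene silenced by methylation.

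No Col-0 list and no second ZF-DDR5 list were analysed here. Whether wild-type chromatin gives the same peaks is therefore unknown. The list has no score and no counts, so its depth is unknown, and peaks of 1 list are not replicates, so the values below are descriptions without a test. The spread over the 5 nuclear chromosomes, which is no replicate error, and Wilson 95% intervals, which cover counting error only, stand beside the values. How well reads can be placed uniquely in repeated sequence was not assessed. Its part in the low counts below is therefore unknown.

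The 739 peaks touched 650 of the 4843 pseudogene loci (13.4%, interval 12.5% to 14.4%). With the peaks centred in protein-coding genes included, 13.9% of pseudogene loci were overlapped by a peak. Of the 27444 protein-coding genes, 28.2% were overlapped by a peak in the same way. A further 29 peaks overlapped a pseudogene locus but were centred in a protein-coding gene and were left out. The peaks nearest to this limit from the inside were centred 42 bp (AT1G73445), 48 bp (AT4G16010) and 53 bp (AT3G61721) from a protein-coding gene. The excluded peaks nearest to it were centred 152 bp (AT2G15271) and 192 bp (AT5G25451) inside one. The 739 peaks made up 49.1% of the 1506 peaks centred outside protein-coding genes.

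Most of the peaks were centred in the locus they overlapped, which the choice by overlap favours where loci are longer than peaks. In 692 of 739 cases (93.6%, interval 91.7% to 95.2%) the peak centre lay inside the pseudogene locus, and 527 peaks (71.3%) lay inside it over their whole width. The others crossed an edge of the locus. Of the 8493 peaks centred in protein-coding genes, a set chosen by the centre, 88.1% lay wholly inside a gene. Only 18 of the 739 peaks (2.44%) overlapped a protein-coding gene by any base. Another type of gene was overlapped by 17 peaks (2.30%). These genes were of the types miscellaneous RNA for 9 peaks and long non-coding RNA for 5. In loci of 2000 bp or more, 509 centres were spread over the locus from its edges to its middle. The outermost band, within 10% of the length from either end, held 20.4% of them (interval 17.2% to 24.2%), and the innermost band, from 40% to 50% of the length, held 18.7%. In protein-coding genes of the same minimum length those bands held 16.0% and 17.7% of 6321 centres. The median distance from the centre to the nearest edge of the locus was 876 bp there, against 793 bp in the protein-coding genes.

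The table has no type for transposable element genes, and it names a transposon family for few loci. All 23 loci that the words of their names placed in a transposon family are typed pseudogene and none transcribed pseudogene. Of 28 loci named after gene families, 19 are typed transcribed pseudogene, and 8 of the other 9 are copies of transfer RNA genes. How the types divide the loci without such a name was not known here. Taken over all windows, the shares of touched loci of both types had overlapping intervals. Pseudogene-type loci were touched in 533 of 3917 cases (13.6%, interval 12.6% to 14.7%) and transcribed pseudogenes in 117 of 926 (12.6%, interval 10.7% to 14.9%). The loci themselves differ in size and place. The median length was 2043 bp for the pseudogene type and 781.5 bp for the transcribed type, and 70.0% against 26.6% of them lay in gene-poor windows. Those are the 39 windows, of 240 windows of 500 kb, whose protein-coding genes number less than 50% of the median window's, which is 130.5. Split by place or by length, the types differed clearly only in part of the classes. Outside gene-poor windows 22.8% (interval 20.5% to 25.3%) of pseudogene-type loci and 14.3% (interval 11.8% to 17.1%) of transcribed pseudogenes were touched, and in gene-poor windows 9.66% and 8.13%, with overlapping intervals. At lengths above 2000 and up to 4000 bp the order was the reverse, with 15.7% (interval 13.8% to 17.9%) against 28.6% (interval 20.6% to 38.2%). In the other length bands transcribed pseudogenes were also higher, but the intervals overlap. The shares were 5.37% against 6.27% up to 500 bp and 26.4% against 32% above 4000 bp. The split by place did not hold length fixed, nor the split by length place.

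Peaks on pseudogenes were concentrated in gene-poor windows, but less so than the pseudogene loci were. These windows held 309 of the 739 peaks (41.8%, interval 38.3% to 45.4%) and 323 of the other 9260 peaks (3.49%). They held 2989 of the 4843 pseudogene loci (61.7%, interval 60.3% to 63.1%). In gene-poor windows 285 of 2989 loci were touched (9.54%, interval 8.53% to 10.6%), against 365 of 1854 (19.7%, interval 17.9% to 21.6%) in the other windows. For protein-coding genes, 15.9% of 1141 genes in gene-poor windows and 28.7% of 26303 in the others were overlapped by a peak. Nearly every second peak in gene-poor windows was on a pseudogene locus (309 of 632, or 48.9%), against 430 of 9367 (4.59%) elsewhere. The annotated sequence differs as well. In gene-poor windows pseudogene loci cover 6.985 Mb and protein-coding genes 2.283 Mb, and elsewhere 3.479 Mb and 62.2 Mb.

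The share of touched loci rose with the number of protein-coding genes in the surrounding window up to 150 genes. In the 21 windows with fewer than 25 protein-coding genes it was 6.90% (126 of 1825 loci, interval 5.83% to 8.16%). It was 12.6% in the 11 windows with 25 or more but under 50 genes, 16.6% in the 21 windows with 50 or more but under 100 and 20.8% (interval 18.7% to 23.1%) in the 155 windows with 100 or more but under 150. In the 27 windows with 150 or more genes it was 18.0%, from 89 loci and with an interval of 11.4% to 27.2%, which spans the value of the band before. The loci became shorter along this series, with a median length of 1980 bp in the first band and 966 bp in the last. Protein-coding genes followed the same order up to 150 genes, from 8.56% overlapped in the first band to 28.9% in the fourth. In the last band their share was 29.6%, so it did not fall there. Peaks on pseudogenes were most numerous per window at low but not the lowest gene number. There were 6.05 per window in the first band, 10.5 in the second, 7.86 in the third, 2.01 in the fourth and 0.667 in the last. These bands were set after the data were examined.

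**Figure D1:**
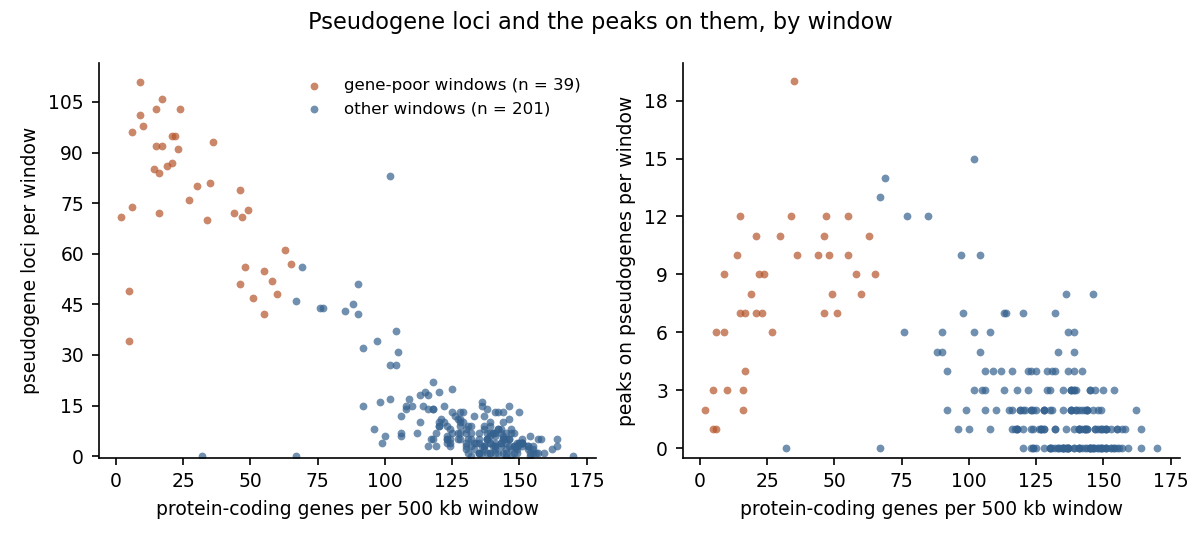
Each point is a window of 500 kb (the last window of each chromosome is shorter), placed by its number of protein-coding genes, with its number of pseudogene loci on the left and of peaks on pseudogenes on the right. Gene-poor windows are in orange and the others in blue. Loci are most numerous at the lowest gene numbers, while the peaks on them reach their highest number, 19, in a window with 35 protein-coding genes.

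Per length of annotated sequence, peak centres were sparser in pseudogenes than in protein-coding genes over the 5 chromosomes pooled. Over all windows there were 66.1 peak centres per Mb of pseudogene sequence and 131.7 per Mb of protein-coding sequence. Outside gene-poor windows the pseudogene value was 114.4 per Mb (398 centres in 3.48 Mb) and the protein-coding value 133.4 per Mb. In gene-poor windows they were 42.1 per Mb (294 centres in 6.98 Mb) and 87.2 per Mb. The gene-poor value was thus 0.368 of the other for pseudogenes and 0.653 of it for protein-coding genes.

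On each of the 5 chromosomes the density in pseudogenes was lower in gene-poor windows than in the others, but the size of the gap varied. There were 153, 163, 162, 103 and 158 peaks on pseudogenes on chromosomes 1 to 5, for 930, 1047, 1080, 835 and 951 loci. They were 7.62% ± 1.86 of a chromosome's peaks (SD, n = 5 chromosomes), with the lowest share, 5.86%, on chromosome 1 and the highest, 10.6%, on chromosome 2. The share of touched loci lay between 13.4% and 14.4% on 4 chromosomes and was 10.9% on chromosome 4. In gene-poor windows the density per Mb of pseudogene sequence was 43.1, 56.6, 37.8, 29.6 and 42.9 on chromosomes 1 to 5, and in the other windows it was 118.6, 87.7, 121.2, 112.2 and 135.6. The ratio of gene-poor to other density was 0.645 on chromosome 2 and from 0.264 to 0.364 on the other 4 chromosomes. The other windows of chromosome 2 include the one from 3000001 to 3500000, with 83 pseudogene loci but only 3 of these peaks. How far that window moves the ratio was not tested. For protein-coding genes that ratio was 0.544, 0.645, 0.443, 0.751 and 0.854 on chromosomes 1 to 5, so on chromosome 2 both kinds of gene had about the same ratio. Outside gene-poor windows the protein-coding density was 134.1, 131.0, 132.9, 136.7 and 132.2 per Mb. The pseudogene density there was below it on chromosomes 1 to 4, most of all on chromosome 2, and above it on chromosome 5. On chromosome 2 the share of these peaks in gene-poor windows was 54.6%, against 33.3% to 40.5% elsewhere.

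**Figure D2:**
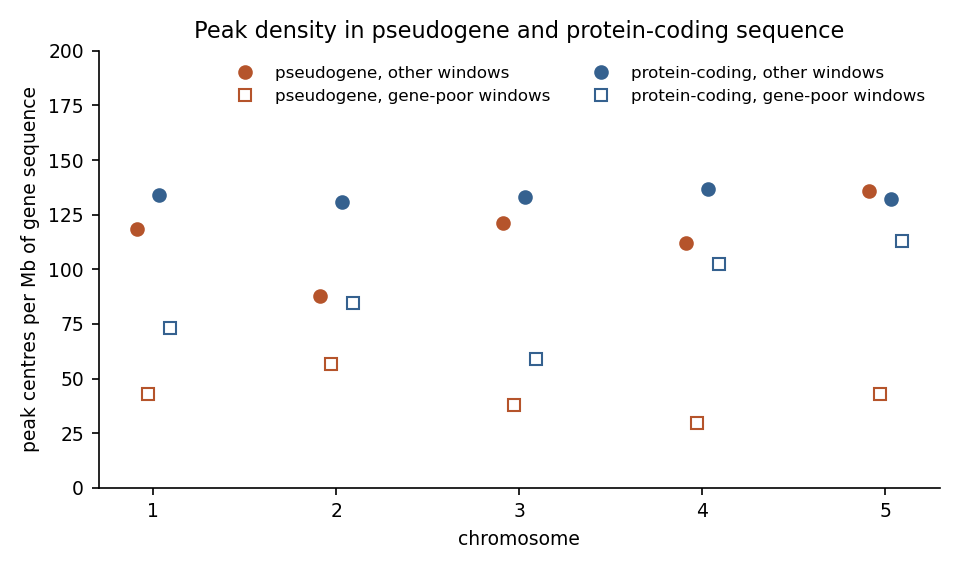
Peak centres per Mb of pseudogene sequence (orange) and of protein-coding sequence (blue) on each chromosome, in gene-poor windows (open squares) and other windows (filled circles). Each symbol is 1 value without error. The gene-poor pseudogene value is the lowest on every chromosome, and on chromosome 2 the values in the pseudogene pair lie closest, at 56.6 and 87.7.

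A pair of neighbouring gene-poor windows of chromosome 2 held many of its peaks on pseudogenes. The window from 2500001 to 3000000 had 19, the highest number of the 240 windows, among 26 peaks in all, and 81 pseudogene loci. The window before it, from 2000001 to 2500000, had 12 among 27 peaks. All 31 lay on loci of the pseudogene type without a symbol of their own. Most loci of gene-poor windows are such, since 2743 of the 2989 are of that type and 2980 have no symbol. AT2G06540 and AT2G06950 carried 3 each, and AT2G05930 and AT2G06560 carried 2 each. The next window, from 3000001 to 3500000, is not gene-poor, with 102 protein-coding genes. It held 83 pseudogene loci but only 4 peaks, of which 3 were on pseudogene loci.

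Long loci were touched more often than short ones, and at each length the gene-poor loci were touched less often. Of loci up to 500 bp, 5.82% were touched (35 of 601, interval 4.22% to 7.99%). The share was 6.99% above that and up to 1000 bp, 9.88% up to 2000 bp, 16.7% up to 4000 bp and 26.6% (215 of 809, interval 23.7% to 29.7%) above 4000 bp. Touched loci of the pseudogene type had a median length of 3321 bp and untouched ones 1876.5 bp. For transcribed pseudogenes the medians were 1321 and 724 bp. Above 4000 bp, 19.3% (interval 16.1% to 22.9%) of gene-poor loci and 39.5% (interval 34.1% to 45.2%) of the other loci were touched. Up to 500 bp these shares were 4.53% and 6.70%, with intervals that overlap. Protein-coding genes of the same lengths outside gene-poor windows were overlapped in 51.3% of cases above 4000 bp and in 8.05% up to 500 bp.

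**Figure D3:**
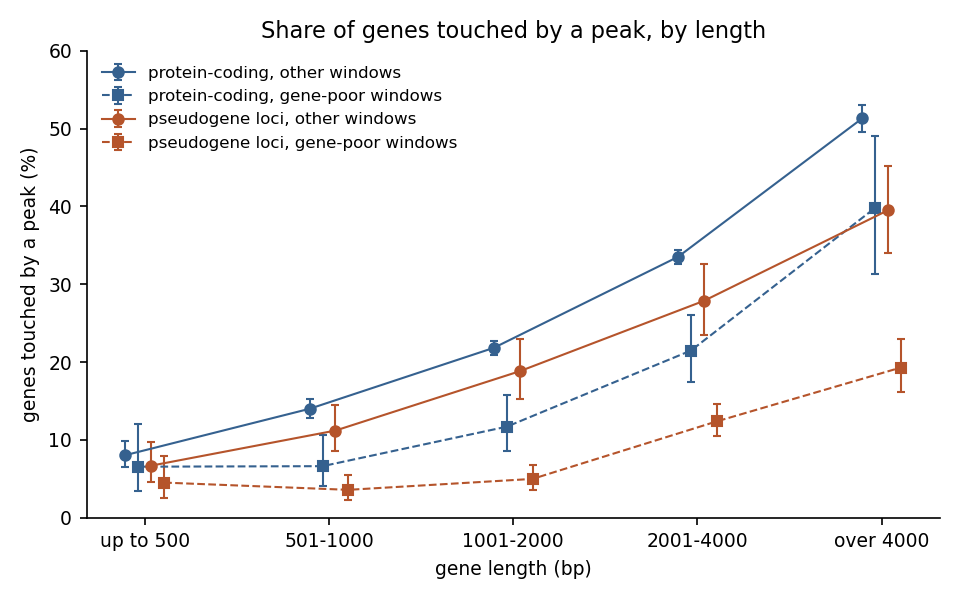
The share of genes touched by a peak (percent, with Wilson 95% intervals as bars) in 5 bands of gene length, for protein-coding genes (blue) and pseudogene loci (orange) in gene-poor windows (squares, dashed) and other windows (circles, solid). Protein-coding genes are counted with any peak and pseudogene loci with the 739 peaks. All 4 lines are higher above 4000 bp than at up to 500 bp, and gene-poor pseudogene loci reach 19.3% where the other pseudogene loci reach 39.5%.

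Several peaks on one locus were seen at 86 loci, of which 73 had 2 peaks, 11 had 3 and 2 had 4. Loci with several peaks were long, with a median of 4423.5 bp against 2638 bp for the 564 loci with 1 peak. AT1G43886, on chromosome 1 in a gene-poor window, had peaks of 576, 468, 691 and 506 bp, which covered 35.8% of its 6269 bp. They formed 2 close pairs, with gaps of 244 and 131 bp within the pairs. AT3G29175, on chromosome 3 outside gene-poor windows, had peaks of 474, 372, 628 and 418 bp, which covered 36.0% of its 5149 bp. The highest covered share among loci with 3 or more peaks was 75.04%, at AT4G09425 on chromosome 4, whose peaks measured 1510, 1903 and 414 bp. The loci with 3 peaks also included AT1G17495, AT1G19420, AT1G46624, AT1G53810, AT1G54430, AT2G06540, AT2G06950, AT2G16670, AT5G28635 and AT5G41835. AT1G19420, of 2735 bp, is the only transcribed pseudogene among these 13 loci. That type is rare among long loci, with 25 of the 809 loci above 4000 bp. Outside gene-poor windows the median gap to the next peak of any kind was 2791.5 bp (order-statistic 95% interval 2349 to 3288 bp) for peaks on pseudogenes and 2905 bp for the other peaks. In gene-poor windows it was 8506 bp against 4382 bp.

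The widths were close to those of the other peaks. The median was 503 bp (order-statistic 95% interval 477 to 535 bp, quartiles 385 and 727.5 bp, range 279 to 1940 bp), against 483 bp (interval 478 to 489 bp) for the other 9260 peaks. The intervals overlap. By chromosome the median lay between 466.5 and 539 bp, and for the other peaks between 480 and 488 bp. Peaks under 400 bp made up 29.1% of the peaks on pseudogenes and 32.5% of the others, and peaks of 1500 bp or more 2.71% and 1.76%, with overlapping intervals (1.76% to 4.14%, and 1.51% to 2.05%). Peaks on pseudogenes had a median of 499 bp (interval 463 to 545 bp) in gene-poor windows and 504 bp elsewhere. For the other peaks these medians were 449 bp (interval 426 to 470 bp) and 485 bp. The median was 511 bp (interval 480 to 544 bp) on pseudogene-type loci and 438 bp (interval 408 to 534 bp) on transcribed pseudogenes.

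**Figure D4:**
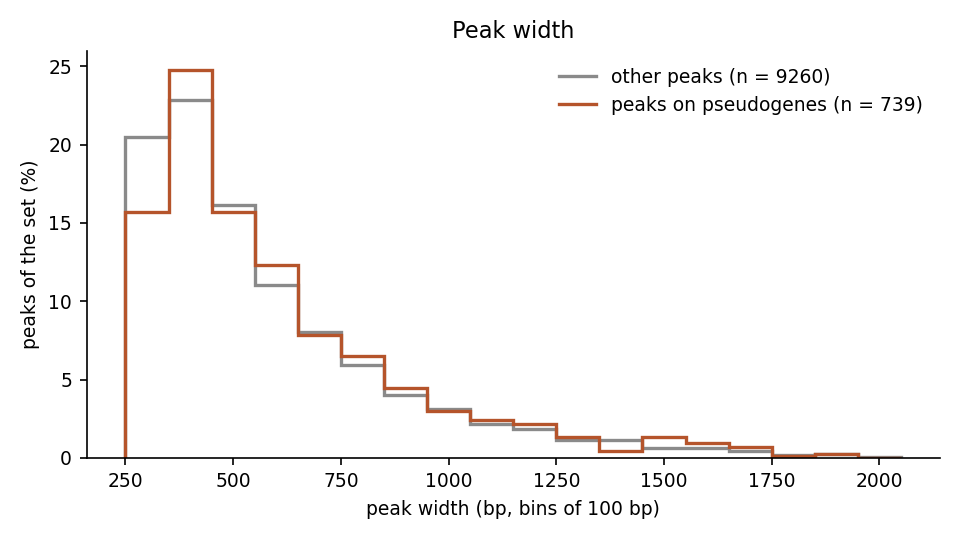
Peak width in bins of 100 bp (horizontal) and the percentage of each set in the bin (vertical), for peaks on pseudogenes (orange) and other peaks (grey). The outlines nearly coincide, and the main gap is in the narrowest bin, from 250 to 350 bp, which holds 15.7% of the peaks on pseudogenes and 20.5% of the others.

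The 20 widest of these peaks measured 1510 to 1940 bp. The widest covered 1940 bp inside AT2G06560 (chromosome 2, 2614285 to 2616224, TAIR10) and ranked 8 in the whole list. It was centred 6501.5 bp from the nearest protein-coding gene. The second lay inside AT4G09425 (chromosome 4, 5967364 to 5969266), measured 1903 bp and ranked 13. The third, of 1751 bp at chromosome 5, 26258452 to 26260202, covered the whole of AT5G65676, a locus of 1458 bp. Next came peaks at AT3G26614 (1729 bp), which also overlapped a protein-coding gene, and AT3G27095 (1689 bp). The peak of 1664 bp at AT1G32890 was centred 1157.5 bp from GBSS1, which encodes granule-bound starch synthase, the enzyme that makes amylose. The peak of 1659 bp at AT5G26345 was centred 2677 bp from MSS1, a sugar transporter gene. Both of those neighbours had a peak of their own. CYP71B33, a cytochrome P450 pseudogene, had a peak of 1614 bp. The other loci of this set, from wide to narrow, were AT5G19097, AT5G41835, AT2G23330, AT5G23955, AT5G28776, AT3G43575, AT1G62090, AT5G36185, AT1G41803, AT3G57586 and AT1G29650, followed by the second peak at AT4G09425. Of the 20 peaks, only those at AT2G06560, AT5G28776, AT3G43575 and AT1G41803 lay in gene-poor windows, which held 41.8% of all 739 peaks.

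The peaks were centred a median of 3012.5 bp from the nearest protein-coding gene (order-statistic 95% interval 2677 to 3285.5 bp, quartiles 1403 and 6042.2 bp). The midpoints of the 4786 pseudogene loci whose midpoint is outside protein-coding genes had a median distance of 5197.5 bp (interval 4963 to 5561.5 bp). Within 1000 bp of a gene were 16.8% of the peaks (interval 14.3% to 19.6%) and 12.2% of the loci. Beyond 10000 bp were 14.7% of the peaks (interval 12.4% to 17.5%) and 34.6% of the loci. By chromosome the median distance of the peaks ran from 2184 bp on chromosome 1 to 3408.5 bp on chromosome 3. It was 6304.5 bp in gene-poor windows and 1849.8 bp elsewhere. On pseudogene-type loci it was 3436.8 bp, against 7128.5 bp for the loci themselves. On transcribed pseudogenes it was 1187.5 bp (interval 1057.5 to 1515.5 bp) against 1285.5 bp for the loci, with overlapping intervals.

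The share of touched loci was highest at a middle distance. It was 9.33% (18 of 193 loci, interval 5.98% to 14.3%) within 500 bp of a protein-coding gene and 22.7% (262 of 1154, interval 20.4% to 25.2%) from 2000 to 5000 bp. Beyond 20000 bp it was 4.28% (41 of 959, interval 3.17% to 5.75%). Length moved with this, since the median locus measured 438 bp in the first of these bands, 2522 bp in the second and 2019 bp in the last. The part of length in the rise was not tested.

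**Figure D5:**
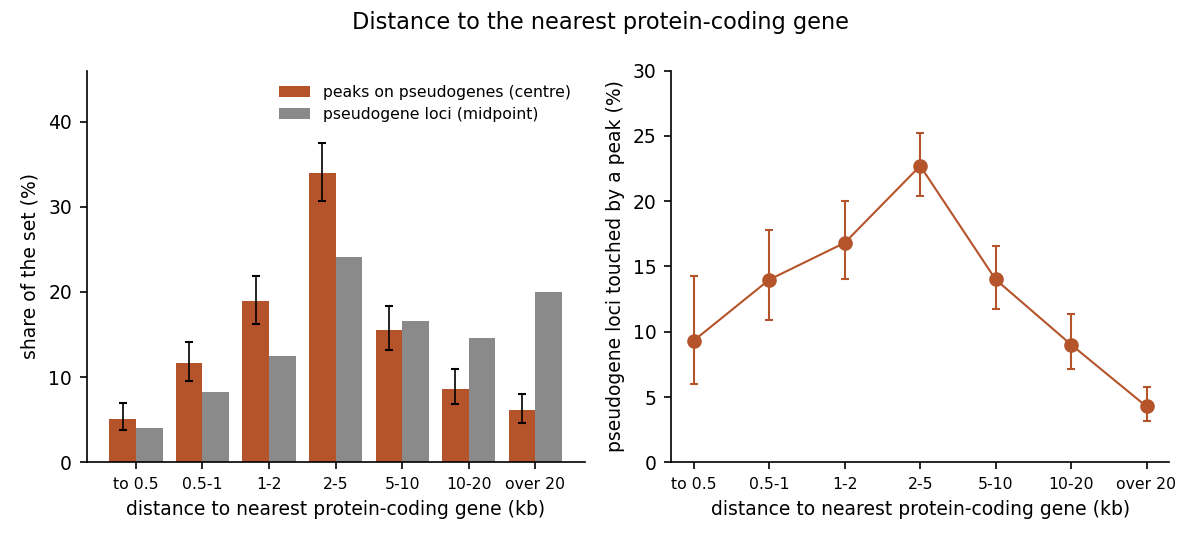
Left, the percentage of peaks on pseudogenes (orange, by centre, bars are Wilson 95% intervals) and of pseudogene loci (grey, by midpoint) in bands of distance to the nearest protein-coding gene in kb. Right, the percentage of loci in each band that were touched, with Wilson 95% intervals. The share of touched loci is highest, at 22.7%, in the band from 2 to 5 kb and lowest, at 4.28%, beyond 20 kb.

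The peaks farthest from any protein-coding gene all lay in gene-poor windows and measured 336 to 463 bp, below the median width of 503 bp. The first, of 353 bp in AT5G32197 (chromosome 5, 11837508 to 11837860), was centred 201046 bp from a gene. The second, of 336 bp in AT5G31873 (chromosome 5, 11746372 to 11746707), was 109901.5 bp away. The others were at AT5G32690 with AT5G32825 (400 bp wide, 78416.5 bp away), AT1G40113 (463 bp, 76772 bp) and AT5G32513 (409 bp, 66424 bp). Of these 5 peaks, 4 were on chromosome 5. All 5 lay wholly inside their loci. AT5G32690 is annotated over 58519 bp, the greatest length among the transcribed pseudogenes, so its overlap says little about position.

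Of the 610 different nearest genes, 146 (23.9%, interval 20.7% to 27.5%) had a peak centre of their own, against 26.9% of all protein-coding genes. Genes nearest to untouched loci alone had one in 303 of 1527 cases (19.8%, interval 17.9% to 21.9%). The nearest genes were shorter than protein-coding genes at large, with medians of 1886.5 and 1707 bp against 2078 bp. Place was not held fixed either, and 15.9% of protein-coding genes in gene-poor windows were overlapped by a peak, against 28.7% in the others. The parts of length and place were not tested.

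Only 67 of the 4843 loci (1.38%) carry a symbol of their own, and the table names an element family for few of them. The words Gypsy, Athila, Copia, LINE, SINE, hAT, CACTA, Mutator, Helitron, mariner and Harbinger occur in the table's names for none of these loci, so the superfamily of nearly all the peaks' elements was not known here. The 23 loci placed in a transposon family were placed by names for Sadhu, MUSTANG or sleeper elements. A symbol with neither such a name nor a word listed above was not placed in one. An example is RE2 (AT4G02960), an untouched locus of the pseudogene type. Of the 67 named loci, 17 were touched (25.4%, interval 16.5% to 36.9%), against 633 of the 4776 without a symbol (13.3%, interval 12.3% to 14.3%). By type they were 5 of 27 of the pseudogene type and 12 of 40 transcribed pseudogenes. Place moved with this, since 58 of the 67 named loci lie outside gene-poor windows. There, 16 of the 58 were touched (27.6%, interval 17.8% to 40.2%), against 19.4% (interval 17.7% to 21.3%) of the 1796 loci without a symbol, and the intervals overlap. Of the 17, only SADHU1-3 lay in a gene-poor window.

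Of the named transposon families, Sadhu non-coding retrotransposons were touched in 1 of 16 cases. That peak, of 869 bp at chromosome 5, 10632979 to 10633847, lay wholly inside SADHU1-3. MUSTANG genes, which descend from transposases of Mutator-like elements and were taken into use by plants, were touched in 2 of 6 cases. MUG1 had a peak of 319 bp, of which 238 bp lay in the locus (chromosome 3, 1246588 to 1246906). MUG5 had one of 405 bp (chromosome 3, 2189694 to 2190098), centred 462 bp from the arginine methyltransferase gene PRMT4B. CYTOSLEEPER, a relative of the domesticated hAT transposase DAYSLEEPER, had a peak of 717 bp inside it (chromosome 1, 5267253 to 5267969). Sadhu loci are short, with a median length of 901.5 bp against 3006.5 bp for the MUSTANG genes.

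Cytochrome P450 pseudogenes, copies of genes for oxidising enzymes of plant metabolism, were touched in 5 of 12 cases. Like the receptor-like and dynamin-related loci below, all 12 are transcribed pseudogenes outside gene-poor windows. Of all transcribed pseudogenes there, 14.3% were touched. CYP71B33 had a peak of 1614 bp at chromosome 3, 9636784 to 9638397, of which 1565 bp lay in its 1809 bp. CYP96A7 had one of 1046 bp, CYP71B18 one of 713 bp and CYP51G2, of the sterol demethylase family, one of 304 bp. At CYP76C8P only 92 bp of a peak of 374 bp lay in the locus. Receptor-like protein and kinase pseudogenes were touched in 1 of 5 cases, at RLP49, which had peaks of 399 and 978 bp. Dynamin-related pseudogenes were touched in 1 of 2 cases, at DRP4D (881 bp). EXT11, named after the extensins of the cell wall, had peaks of 721 and 440 bp. None of the 8 transfer RNA pseudogenes, with a median length of 72 bp, was touched, and of all pseudogene-type loci up to 500 bp 5.37% were. The remaining named loci were RABA4E (463 bp), a Rab GTPase copy, NMT2 (399 bp), an N-myristoyltransferase copy, RNR2B (545 bp), named after the ribonucleotide reductase small subunit, and ZIP8 (298 bp), named after metal transporters. AOP2, which in other accessions encodes an enzyme of glucosinolate side chains, had a peak of 317 bp at chromosome 4, 1352872 to 1353188.

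Several named pseudogenes lie beside an intact relative. Of the 67 named loci, 18 have a protein-coding neighbour on either side whose symbol begins with the same 3 letters, and 6 of these were touched. They were CYP96A7, DRP4D, CYP71B18, CYP71B33, AOP2 and RLP49. Of the 49 without such a neighbour, 11 were touched. Reads from near-identical copies cannot always be told apart, so peaks at loci with a close relative are uncertain. The nearest protein-coding gene had a peak of its own at CYP71B33 (CYP71B34) but not at CYP71B18 (CYP71B19), DRP4D (DRP4C) or AOP2 (AOP1).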

How the data were processed

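The deposited file is a list of 9999 intervals in 3 columns (chromosome, start, end) and holds no other value. Per the submitters' processing notes, the build was TAIR10 and the tools included Bowtie2 2.4.2, fastp 0.20.1, deepTools 3.5.1, Picard 2.25.6 and SAMtools. No source used here names the peak caller, its threshold, its control or any limit on rows. Per the labels' protocols, an anti-FLAG antibody was used on crosslinked, sonicated chromatin, in a text that speaks of DDR4 lines. The ZF-DDR5 labels have no antibody entry.

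Intervals were counted from 1 and set against the RefSeq gene table of assembly TAIR10.1 (37899 loci on 5 nuclear chromosomes), which gives no strand or exons. Moving the table by 50 or 200 bp in either direction gave 728 to 738 peaks in place of 739. A locus belongs to the window that holds its midpoint, and a peak to that of its centre. Python 3.11.15, numpy 2.4.6 and pandas 2.3.3 were used, and the interval code recovered known answers on simulated data. The table's words were searched for element families. Named loci are those of the 20 widest peaks, the 5 farthest from a gene, loci with several peaks (in full for 3 or more), loci with a symbol and those at the limits of the rule. The peaks and lists were chosen with earlier results of these data known. No test was run, since peaks of 1 list are not replicates. The genome sequence was not used here, so no sequence is printed.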

Additional observations from a re-analysis of the deposited data

How the results depend on the processing

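Of 17 alternatives, 15 left the value within 1.5 times the count or within the 95% interval of the main value. The number of peaks on pseudogenes, 739, was 688 when at least 50% of the width had to lie in the locus, 692 with the centre in the locus and 721 without contact with a protein-coding gene. The 4 moves of the gene table were added after the data were examined. The share in gene-poor windows, 41.8%, lay between 40.05% (200 kb windows) and 42.6%. The median width, 503 bp, became 720.5 bp in the wider 50% of the list, by construction. The share of touched loci, 13.4%, became 12.45% when the centre had to lie in the locus, which leaves fewer loci by construction. With no score in the list, no stricter threshold could be set. No paired analysis was possible because 1 list, filed under 1 sample, was analysed here. What depth limits here is unknown.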
